A study of Mus musculus with 3 samples.

Results

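KPC78 cells transcribed every nuclear gene of the mitochondrial ribosome that carries an Mrpl or Mrps symbol. The genes were chosen by symbol alone, as Mrpl or Mrps followed by a number and at most 1 letter from a to c, which took 78 of the 35764 gene symbols measured. KPC78 is a cell line of mouse pancreatic ductal adenocarcinoma with the genotype label WT (wild type). Its polyadenylated RNA was sequenced in 3 libraries, which form the study's 1 group (KPC78, replicates 1 to 3), without drug, knockout or untreated counterpart, and the stated aim was to measure integrin subunits. All tests are therefore between genes within a library. The replicates are called biological, but how the cultures were kept apart is not said, so p-values reach no further than these libraries. They come from limma, which draws each gene's own spread between libraries toward that of all genes tested. Levels are TPM, a share of transcripts corrected for transcript length. The number of reads behind them cannot be recovered from TPM, so the depth is unknown and no counting intervals are given.

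The mitochondrial ribosome translates the mRNAs of the mitochondrial genome, all of which encode inner-membrane subunits of the respiratory chain and ATP synthase. Its rRNAs come from the mitochondrial genome, but every one of its proteins is encoded in the nucleus, made in the cytosol and imported. Part of these proteins descend from bacterial ribosomal proteins, and the rest were added during mitochondrial evolution. The large subunit holds the peptidyl transferase centre and the exit tunnel, and the small subunit holds the decoding centre and the mRNA channel. Oxidative phosphorylation therefore depends on this ribosome, in tumour cells as in others.

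Each library summed to between 999728 and 999776 TPM and listed 11938 to 12078 genes at or above 1 TPM. Of the markers of the labelled cell type, 6 of 7 epithelial and ductal genes were at or above 1 TPM in every library, among them Krt18 with 1472 ± 31 TPM (SD, n = 3), while Epcam was at 0.165 ± 0.0532 TPM. The list's summed level was between 3228 and 3443 TPM. Fibroblast markers (0 of 6, summed 1.45 to 1.82 TPM), endothelial markers (0 of 5, summed 0.858 to 1.12 TPM) and leukocyte markers (1 of 6, Cd68, summed 1.63 to 3.30 TPM, Adgre1 at 0) were near 0. Of 8 acinar and endocrine markers only Cela1 was detected, and Prss1, Cpa1, Ptf1a, Ins1, Ins2 and Gcg were listed at 0.

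The promoters of Mrps6, Mrps21, Mrpl17 and Mrps18a, members of rank 1, 2, 4 and 28 by mean level, are shown as examples that differ in which regulatory words they hold. They were picked after the words were found. Each runs from 250 bases before to 50 bases after the RefSeq transcription start (GRCm38.p6). Capitals mark NRF1 (GCGCANGCG), GABP or other ETS (CCGGAAG) and YY1 (AAGATGGCG) words on either strand. They lie at chr16:92058086-92058385 (plus strand) for Mrps6, chr3:95871465-95871764 (minus strand) for Mrps21, chr7:105811038-105811337 (minus strand) for Mrpl17 and chr17:46110754-46111053 (plus strand) for Mrps18a.
Mrps6: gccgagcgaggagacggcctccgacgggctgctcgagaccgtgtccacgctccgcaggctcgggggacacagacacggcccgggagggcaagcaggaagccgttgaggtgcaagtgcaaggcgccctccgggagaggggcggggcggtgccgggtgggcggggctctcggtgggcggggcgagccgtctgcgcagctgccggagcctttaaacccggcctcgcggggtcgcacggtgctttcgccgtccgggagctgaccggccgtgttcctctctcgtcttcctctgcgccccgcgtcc
Mrps21: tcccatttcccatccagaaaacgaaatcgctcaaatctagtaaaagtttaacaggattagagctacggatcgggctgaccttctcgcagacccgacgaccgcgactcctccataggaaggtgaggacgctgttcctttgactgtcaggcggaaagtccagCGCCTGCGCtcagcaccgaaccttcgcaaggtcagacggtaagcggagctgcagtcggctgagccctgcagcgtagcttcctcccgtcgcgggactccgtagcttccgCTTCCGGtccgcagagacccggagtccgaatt
Mrpl17: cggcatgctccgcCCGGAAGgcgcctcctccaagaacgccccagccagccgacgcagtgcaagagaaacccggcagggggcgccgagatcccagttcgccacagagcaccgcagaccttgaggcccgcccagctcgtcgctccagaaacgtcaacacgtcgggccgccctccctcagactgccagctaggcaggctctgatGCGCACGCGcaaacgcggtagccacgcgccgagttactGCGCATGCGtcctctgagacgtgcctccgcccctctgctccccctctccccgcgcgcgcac
Mrps18a: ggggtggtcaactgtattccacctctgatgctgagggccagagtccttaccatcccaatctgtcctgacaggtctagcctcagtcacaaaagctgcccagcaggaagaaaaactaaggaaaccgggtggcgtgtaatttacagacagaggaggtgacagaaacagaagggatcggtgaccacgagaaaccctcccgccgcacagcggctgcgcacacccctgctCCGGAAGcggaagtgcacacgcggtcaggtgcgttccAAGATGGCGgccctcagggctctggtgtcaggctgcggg
The Mrps21 promoter held an NRF1 and an ETS word, and the Mrpl17 promoter an ETS word and a pair of NRF1 words. The Mrps18a promoter held an ETS word and a YY1 word, and the GC-rich Mrps6 promoter held none of these 3 words.

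All 78 members were at or above 1 TPM in every library, against 32.6% of the 35764 symbols and 10822 of the 19527 protein-coding symbols. All 78 were also at or above 10 TPM in every library, as were 8251 of the 35764 symbols. Their summed level was 5822, 5798 and 5604 TPM in replicates 1, 2 and 3, or 0.574% ± 0.012 of the library (SD, n = 3). The median member stood at 62.7, 64.5 and 60.3 TPM, a mean of 62.5 ± 2.14 TPM. The median over the 12014 symbols averaging 1 TPM or more was 21.8 ± 1.03 TPM. Member means ran over a 19.7-fold range, and the middle of the distribution lay between 39.9 and 91.4 TPM at the lower and upper quartile. The low end was Mrpl23 at 13.0 TPM, whose place at the bottom depended on whether a pseudogene copy was added, as described below. The next lowest member was Mrps30 at 18.5 TPM.

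**Figure D1:**
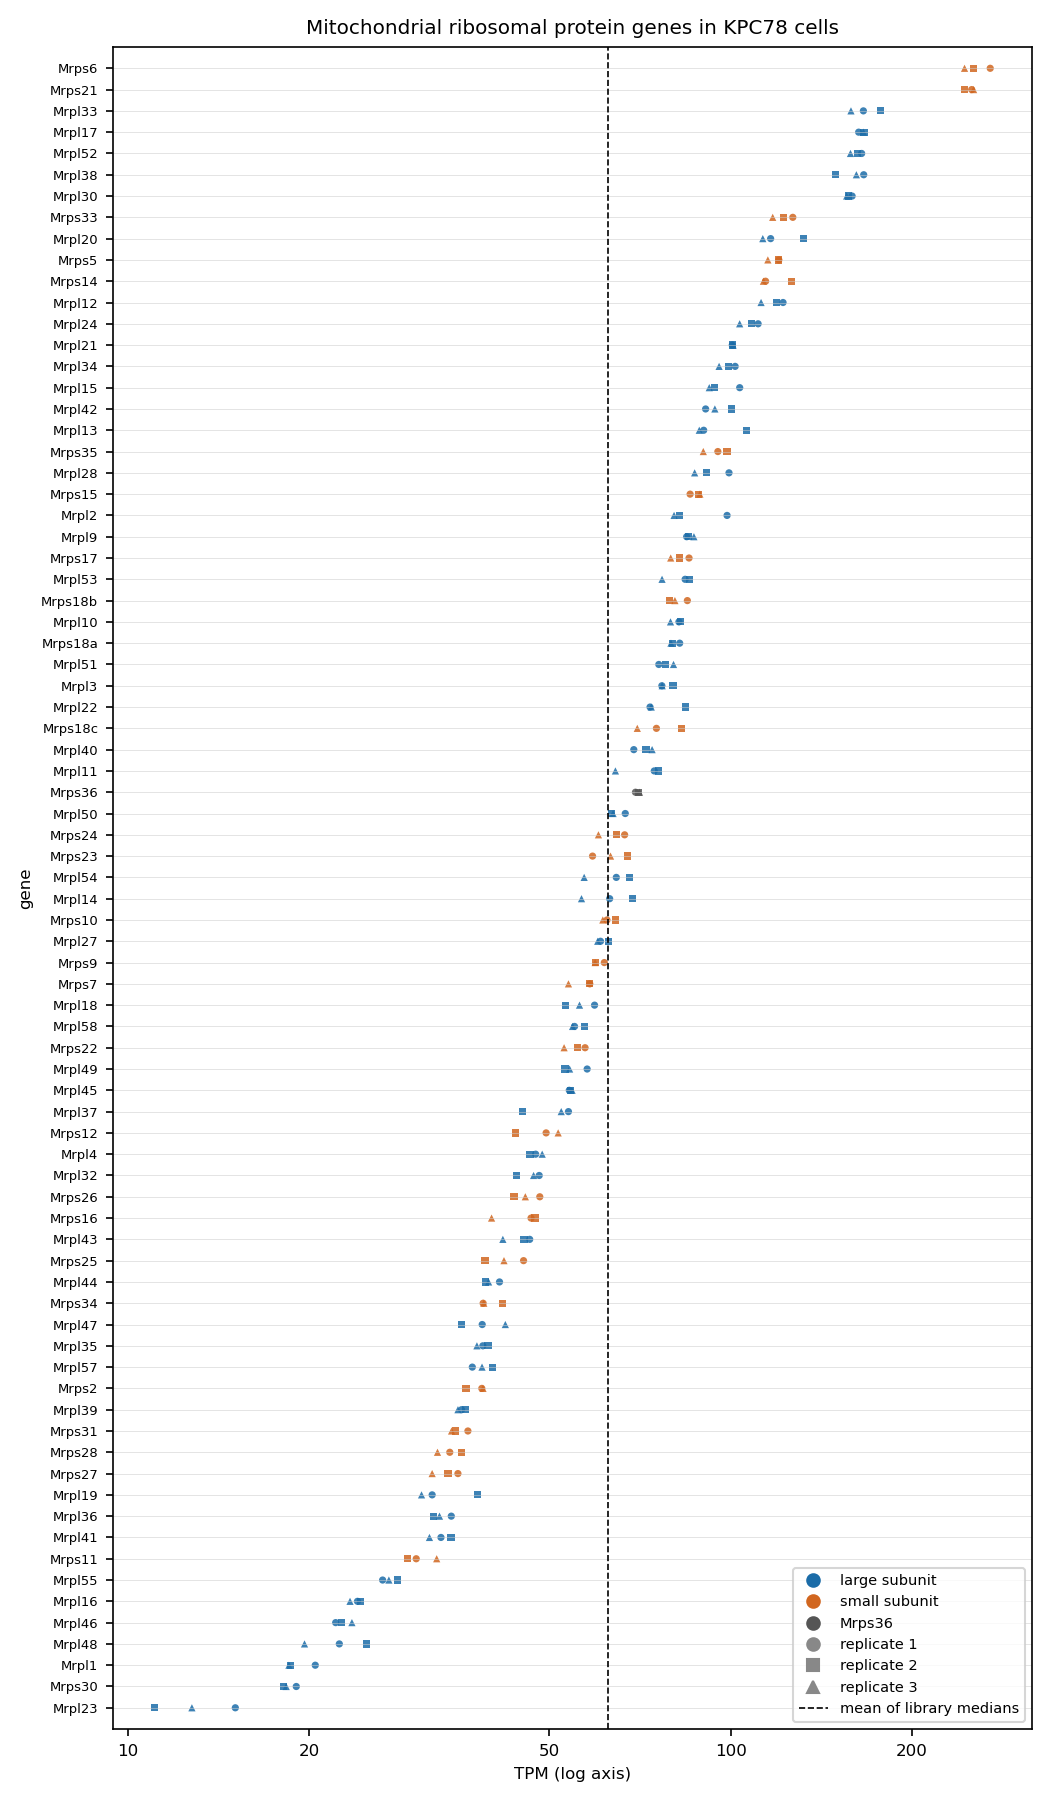
TPM of the 78 Mrpl and Mrps genes (log axis), highest mean at the top. Each point is 1 library (circle, square and triangle for replicates 1, 2 and 3), coloured by the subunit in which the protein is found, and the dashed line is the mean of the library medians, 62.5 TPM. Mrps6 and Mrps21 stand apart at the top near 250 TPM, 5 large subunit genes form a step between 149 and 177 TPM, and Mrpl23 is lowest with 11.1 to 15.1 TPM.

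Small subunit proteins led the order. Mrps6 (bS6m in the uniform nomenclature, homologue of bacterial S6, chr16:92058270-92112227) had 269.6, 253 and 244 TPM in replicates 1, 2 and 3. Mrps21 (bS21m, homologue of bacterial S21, chr3:95862634-95871519) had 251, 244 and 253 TPM. The ranges of the pair overlapped, and both lay above every library of every other member. Each was about 4 times the family median, with a mean log2 difference of 2.01 (SE 0.07) for Mrps6 and 1.98 (SE 0.07) for Mrps21. The adjusted p was 9.0e-10 for Mrps6 and 1.1e-09 for Mrps21 by limma with Benjamini-Hochberg adjustment over all 12014 genes, on the log2(TPM + 1) scale, and both were higher in 3 of 3 libraries. Among all symbols they held ranks 519 and 525. Mrps6 and Mrps21, like the other highest and lowest members described next, were named by rank in these libraries, which fixes their side of the median. Of all 12014 genes, 18% were called above the family median and 76.9% below it (limma).

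Below them came a step of 5 large subunit genes. Mrpl33 (bL33m) had 166, 177 and 158 TPM in replicates 1, 2 and 3. Mrpl17 (bL17m, a protein near the exit of the peptide tunnel) had 163, 166 and 166 TPM. Mrpl52 (mL52, without a bacterial counterpart) had 165, 162 and 158 TPM. These levels overlapped with each other and with those of the central protuberance protein Mrpl38 (mL38; 166, 149 and 162 TPM) and of Mrpl30 (uL30m; 159, 157 and 156 TPM). Their log2 differences from the family median ran from 1.32 for Mrpl30 to 1.41 for Mrpl33, and the highest adjusted p of the 5 was 4.0e-08 for Mrpl38 (limma). No library of any of the 5 overlapped with the next gene, Mrps33 (mS33), which had 127, 122 and 117 TPM.

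Of the 8 lowest members, 7 belong to the large subunit, as do 51 of the 77 subunit genes. Mrpl23 (uL23m, which lines the end of the exit tunnel, chr7:142532686-142540747) had 15.1, 11.1 and 12.8 TPM in replicates 1, 2 and 3. Mrps30, which in spite of its symbol is found in the large subunit (mL65), had 19.0, 18.1 and 18.3 TPM. Mrpl1 (uL1m, the protein of the L1 stalk) had 20.5, 18.6 and 18.5 TPM. Mrpl23 lay below every other member in each library, at a log2 difference of -2.19 (SE 0.09, adjusted p = 3.4e-09, limma) from the family median. This call ended and its direction turned when an identical pseudogene copy, described below, was added (0.16, adjusted p = 0.076, limma). The ranges of Mrpl1 and Mrps30 overlapped, at -1.65 and -1.70, with Mrpl1 the higher gene within each library.

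Mrpl48 (mL48) had 22.4, 24.9 and 19.6 TPM and Mrpl46 (mL46) 22.1, 22.6 and 23.5 TPM; both are proteins of the central protuberance. Mrpl16 (uL16m, near the peptidyl transferase centre) had 24.0, 24.3 and 23.4 TPM. These 3 genes overlapped in level. Mrpl55 (bL31m) had 26.5, 28.0 and 27.1 TPM, and Mrps11 (uS11m), the lowest gene of the small subunit, had 30.1, 29.1 and 32.5 TPM. Their log2 differences were -1.45, -1.42, -1.35, -1.17 and -1.01 for Mrpl48, Mrpl46, Mrpl16, Mrpl55 and Mrps11, the highest adjusted p being 4.7e-07 for Mrps11 (limma). Mrps11 sat at the 2-fold line, and its difference was -0.95 with replicate 2 left out and -0.995 with replicate 1 left out, both short of that line.

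Because the family median is made from the members, they fall on both sides of it by construction, and the counts describe how widely they spread. At adjusted p below 0.05 (limma), 35 members were above it, where 18% of all 12014 genes were above, and 33 were below it, where 76.9% of all genes were below. The other 10, from Mrpl50 at 64.7 TPM to Mrpl18 at 56.3 TPM, did not pass. With a difference of at least 2-fold asked as well, 7 members were above (9.28% of all genes) and 8 were below (60.3% of all genes). The 7 and the 8 are the genes just described. Along the order of means, 11 of the 77 neighbouring pairs had ranges over the libraries that did not overlap. That count sets libraries against each other and does not use the order within each library. The same share over all genes was not computed.

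The subunits were close in level. The median of the 51 large subunit genes was 64.6, 67.9 and 60.2 TPM in replicates 1, 2 and 3, and that of the 26 small subunit genes was 60.4, 62.1 and 60.0 TPM. The ratio of large to small was 1.07, 1.09 and 1.00, a mean of 1.06 ± 0.05 (SD, n = 3). No test was made, since the smallest p that an exact sign-flip test allows with 3 libraries is 0.25. The summed level was 3630 ± 77.7 TPM for the large subunit and 2041 ± 43.4 TPM for the small subunit. Mrps18a (mL66) and Mrps30 (mL65) were counted with the large subunit, where their proteins sit, and Mrps36 with neither.

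The uniform names begin with u or b where a protein is counted as having a bacterial counterpart and with m where it is mitochondria-specific. By this prefix Mrps18a and Mrps18b, although related to bacterial S18, count as specific. The 46 members with a u or b name had a median of 74.1, 78.0 and 67.2 TPM in replicates 1, 2 and 3. The 31 members with an m name that are ribosomal subunits had 55.1, 54.2 and 54.1 TPM. The 2 sets of library medians did not overlap, but the ranges of single genes did, from 13.0 (Mrpl23) to 255 TPM (Mrps6) for the first and from 18.5 (Mrps30) to 162 TPM (Mrpl52) for the second. The gap was in both subunits, with medians of 77.5 ± 3.25 TPM for u or b names and 54.6 ± 0.42 TPM for m names in the large subunit, and 63.3 ± 2.12 and 50.6 ± 1.91 TPM for those of the small subunit (SD, n = 3). No test was made of this split.

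Proteins that sit together in the ribosome were not at one level. In the central protuberance, Mrpl38 had 159 ± 8.73 TPM and Mrpl40 (mL40) had 71.9 ± 2.55 TPM. There, Mrpl18 (uL18m) had 56.3 ± 3.09 TPM, Mrpl58 (mL62, known as the peptidyl-tRNA hydrolase ICT1) 55.7 ± 1.36 TPM and Mrpl46 22.8 ± 0.718 TPM (SD, n = 3 each). Around the exit tunnel, Mrpl17 had 165 ± 1.83 TPM, Mrpl24 (uL24m) 108 ± 3.82 TPM and Mrpl22 (uL22m) 77.1 ± 5.99 TPM. Mrpl45 (mL45, which anchors the ribosome to the inner membrane) had 54.3 ± 0.289 TPM, Mrpl47 (uL29m) 38.9 ± 3.28 TPM and Mrpl23 13.0 ± 2.01 TPM. Summed with its pseudogene copy, described below, Mrpl23 was at 71.1 ± 2.41 TPM. Oxa1l, the insertase that receives the nascent chains at this exit, had 36.4 ± 2.42 TPM. These genes were grouped by position after their values were seen.

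In the small subunit, Mrps5 (uS5m, at the mRNA entry) had 119 ± 2.86 TPM and Mrps35 (mS35) had 94.7 ± 4.31 TPM. Mrps12 (uS12m, at the decoding centre) had 48.4 ± 4.02 TPM and Mrps7 (uS7m) 56.9 ± 2.63 TPM. Mrps34 (mS34) had 39.9 ± 1.72 TPM and Mrps27 (mS27, a pentatricopeptide repeat protein) 33.7 ± 1.67 TPM (SD, n = 3 each). Mutations in human MRPS34, MRPL44 and MRPS16 are known to cause combined oxidative phosphorylation deficiency. The mouse genes Mrpl44 (mL44) and Mrps16 (bS16m) had 40.1 ± 1.14 and 44.7 ± 3.99 TPM.

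Pairs of related genes were compared within the same library, each by a limma fit of all genes against the second gene of the pair. The noise of the second gene is shared by all genes of a fit, so p-values are not comparable between pairs with different second genes. The 3 relatives of bacterial S18 occupy different places: Mrps18c (bS18m) and Mrps18b (mS40) in the small subunit and Mrps18a in the large. Mrps18a had 82.3, 80.2 and 79.6 TPM in replicates 1, 2 and 3, Mrps18c 75.3, 82.8 and 70.0 TPM, and Mrps18b 84.8, 79.1 and 80.8 TPM. All 3 overlapped. The log2 difference was -0.01 for Mrps18a over Mrps18b (95% interval -0.12 to 0.10, adjusted p = 0.751, limma). It was -0.10 for Mrps18c over Mrps18b (-0.27 to 0.07, adjusted p = 0.185, limma) and 0.09 for Mrps18a over Mrps18c (-0.18 to 0.35, adjusted p = 0.528, limma). With replicate 2 left out, Mrps18c over Mrps18b was -0.19 and passed (adjusted p = 0.026, limma). Against the same second gene, 96.8% of all genes differed from Mrps18b and 93% from Mrps18c.

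Mrpl12 (bL12m) forms the flexible stalk that recruits translation factors and is held by Mrpl10 (uL10m) and, at its base, Mrpl11 (uL11m). In bacteria the L12 protein is present in several copies per ribosome. Mrpl12 had 122, 119 and 112 TPM, against 82.1, 82.5 and 79.5 TPM for Mrpl10 and 74.7, 75.8 and 64.4 TPM for Mrpl11. Mrpl12 was above both in 3 of 3 libraries, 1.45 ± 0.04-fold over Mrpl10 and 1.65 ± 0.09-fold over Mrpl11 (SD, n = 3). The log2 differences were 0.53 (SE 0.05, adjusted p = 7.7e-05) and 0.71 (SE 0.13, adjusted p = 1.2e-07) by limma. The lower p over Mrpl11 came with the larger SE and is not firmer evidence than that over Mrpl10. Of all genes, 96.5% differed from Mrpl10 and 92.6% from Mrpl11. These SEs include the spread of all genes, while the SDs of the log2 ratios themselves were 0.037 and 0.075. Over the settings tried, the adjusted p of Mrpl12 over Mrpl11 ran from 3.2e-11 to 0.00044 (limma).

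Mrpl37 (mL37) and Mrps30 are related proteins that lie side by side in the large subunit. Mrpl37 had 53.8, 45.2 and 52.4 TPM, against 19.0, 18.1 and 18.3 TPM for Mrps30. Mrpl37 was 2.73 ± 0.20-fold higher (log2 difference 1.40, SE 0.06, adjusted p = 3.4e-06, limma), where 93.9% of all genes differed from Mrps30.

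Mrps36 carries a mitoribosomal symbol, but its protein (KGD4) is known as an adaptor of the 2-oxoglutarate dehydrogenase complex of the citric acid cycle. It had 69.5, 70.3 and 70.6 TPM, against 95.2, 98.6 and 90.1 TPM for Mrps35, its neighbour by number. The groups did not overlap, at a ratio of 0.742 ± 0.04 (log2 difference -0.43, SE 0.09, adjusted p = 4.1e-05, limma), where 96.1% of all genes differed from Mrps35. Mrps36 stood 0.16 above the family median on the log2 scale (adjusted p = 0.049, limma), and all its coding words of 31 bases also occur in other genes, each of which had a mean under 1 TPM.

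**Figure D2:**
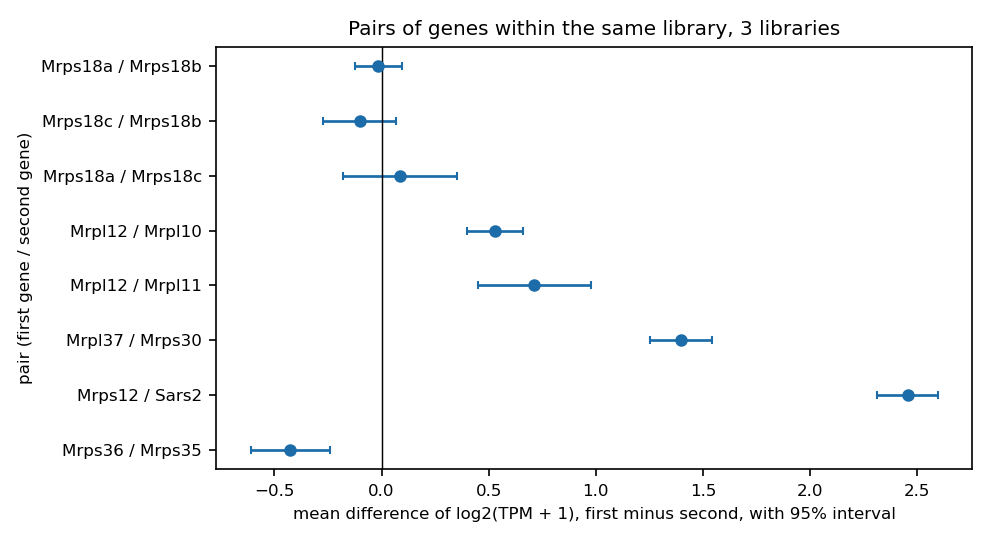
Mean difference of log2(TPM + 1), first gene minus second gene, for the 8 pairs, with 95% intervals from limma over 3 libraries. The 3 pairs among Mrps18a, Mrps18b and Mrps18c span 0, the 4 pairs led by Mrpl12, Mrpl37 and Mrps12 lie above 0, and Mrps36 over Mrps35 lies below 0.

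Some members start close to a gene on the other strand. A protein-coding gene on the other strand started within 1000 bases upstream of 18 of the 78 members (23.1%), against 6.78% of the 19527 protein-coding symbols and 10.6% of the 10822 that were at or above 1 TPM in every library. The 2 genes of such a pair were often at unequal levels. Mrps12 starts 172 bases from Sars2, which encodes the mitochondrial seryl-tRNA synthetase. Mrps12 had 49.4, 43.9 and 51.7 TPM, against 7.81, 7.60 and 8.56 TPM for Sars2. Mrps12 was 6.05 ± 0.27-fold higher (log2 difference 2.45, SE 0.06, adjusted p = 5.2e-10, limma), where 95.1% of all genes differed from Sars2.

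The other 17 pairs were not tested. Mrpl49 (mL49) had 57.8, 53.1 and 54.1 TPM beside Fau, the gene of cytosolic ribosomal protein S30 fused to a ubiquitin-like protein, with 1942, 2310 and 2067 TPM at a distance of 59 bases. Mrpl10 had 81.4 TPM on average beside Lrrc46 with 0.923 TPM. Mrpl32 (bL32m) was below its partner Psma2, a proteasome subunit, with 46.5 and 72.3 TPM. In the other pairs the member was the higher gene, from Mrpl51 with 78.1 TPM beside the condensin gene Ncapd2 with 52.3 TPM to Mrps5 with 119 TPM beside Zfp661 with 5.32 TPM. Members lay on 17 chromosomes, with 11 on chromosome 11 and 8 on chromosome 17. The share of all genes on each chromosome was not computed, so these counts do not show clustering. Mrpl46 (chr7:78775236-78783531) and Mrps11 (chr7:78783119-78792989) are neighbours whose exons overlap by 173 bases on opposite strands, and both were among the lowest 8.

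Whether reads were assigned by strand is not given in the sources used here, so reads of overlapping genes on opposite strands cannot be told apart where no strand is used. The share of exonic bases that lie opposite another gene was 69.8% for Mrps25 (Nr2c2), 63.4% for Mrps34 (Mapk8ip3), 36% for Mrpl19 (Gcfc2) and 33.4% for Mrpl43 (Twnk, the mitochondrial helicase). Mrps34 also shares 37.0% of its exonic bases with Nme3 on its own strand. Mrpl53 shares 88.0% with a same-strand gene model (Gm42688). Mrps6, the highest member, shares 19.9% with Gm49711 (0.493 TPM) and 10.4% with Slc5a3 (43.5 TPM), both on its own strand. These are shares of all exonic bases, and how far they move the levels of these members was not tested. Of the coding words of 31 bases, 0% occur in another gene for Mrps25 and Mrpl19. The share is 44.9% for Mrps34, 45.2% for Mrps6, 64.7% for Mrpl43 and 100% for Mrpl53.

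Promoter windows were found in RefSeq for 69 of the 78 members. The ETS word CCGGAAG, which the GA-binding protein GABP recognises, occurred in 26 of them (37.7%), against 13.7% of the 15980 genes with a window and 21.7% of the 8887 of these at or above 1 TPM in every library. The NRF1 word GCGCANGCG occurred in 16 (23.2%), against 10.3% and 16.3%. The YY1 word AAGATGGCG occurred in 8 (11.6%), against 2.31% and 3.89%. GGGCGG, the SP1 word, occurred in 34 (49.3%), against 52.9% and 71.2%, and the TATA box word TATAAA in 5 (7.25%), against 13.1% and 8.56%. Both strands were searched, and no word contains another, although occurrences may overlap. A match is a string of letters, not a bound site, and no test was made of these shares.

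At least 1 of the NRF1, ETS and YY1 words stood in 42 member promoters, 2 or more in 8, and none in 27. The same shares over all genes with a window were not computed, so these counts have nothing to be set against. The median level was 76.6 TPM for members with the ETS word and 60.4 TPM for members without it. For the NRF1 word it was 69.9 TPM with and 62.7 TPM without, and for the 8 members with the YY1 word 44.6 TPM against 63.2 TPM. As the printed promoters show, the highest member, Mrps6, had none of the 3 words, and Mrps21, at nearly the same level, had both an NRF1 and an ETS word. The genes of the factors that read these words were all transcribed, with Gabpa at 43.8 ± 1.29 TPM, Gabpb1 at 22.1 ± 1.12 TPM, Nrf1 at 18.9 ± 1.43 TPM and Yy1 at 65.8 ± 3.05 TPM (SD, n = 3).

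Of 9 regulators of mitochondrial gene programmes, 7 were detected, that is, reached 1 TPM in each library. Myc, a transcription factor known to raise ribosome and mitochondrial genes, was highest with 207, 202 and 212 TPM in replicates 1, 2 and 3. The PGC-1-related coactivator Pprc1 had 33.4, 29.7 and 35.1 TPM. Its relatives Ppargc1a and Ppargc1b, which drive mitochondrial biogenesis in muscle and brown fat, were under 1 TPM, with 0.577, 0.494 and 0.499 TPM for Ppargc1a and 0.228, 0.185 and 0.243 TPM for Ppargc1b.

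The lowest member has an abundant pseudogene copy. Mrpl23-ps1, a processed pseudogene (chr2:74591330-74591909, minus strand), is identical to Mrpl23 over 421 bases, which is 81.6% of the Mrpl23 coding sequence, so reads from this stretch fit either gene equally. Mrpl23-ps1 was listed at 56.6, 62.0 and 55.6 TPM, above Mrpl23 in each library. The first 90 bases of the shared stretch, coding bases 96 to 185 of Mrpl23, are shown with the same stretch of the pseudogene. They hold no mismatch, and hence no capitals.
Mrpl23: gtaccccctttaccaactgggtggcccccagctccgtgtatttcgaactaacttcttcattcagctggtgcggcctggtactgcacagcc
Mrpl23-ps1: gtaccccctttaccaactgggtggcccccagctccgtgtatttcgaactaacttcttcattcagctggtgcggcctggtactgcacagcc
The sum of both was 71.7, 73.1 and 68.4 TPM, a mean of 71.1 ± 2.41 TPM, of which Mrpl23 took 18.3% ± 2.96 (SD, n = 3). Summed with its copy, Mrpl23 would lie 0.16 above the family median on the log2 scale in place of -2.19 (adjusted p = 0.076, limma), so its place at the bottom depended on whether the copy was added. The sum also varied less than Mrpl23 alone, whose coefficient of variation of 15.5% was the largest of the 78.

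The copy of Mrpl48 carries mismatches. Mrpl48-ps (chr4:88599175-88599810, minus strand) is 98.1% identical over the 633 coding bases of Mrpl48, with 12 mismatches, and the stretch of coding bases 360 to 449 holds 7 of them, marked in capitals.
Mrpl48: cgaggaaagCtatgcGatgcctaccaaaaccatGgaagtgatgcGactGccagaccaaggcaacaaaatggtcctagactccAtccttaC
Mrpl48-ps: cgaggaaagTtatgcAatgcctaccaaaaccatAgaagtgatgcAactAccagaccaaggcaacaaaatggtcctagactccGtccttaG
Counted from the first base of the Mrpl48 coding sequence, these are C369T, G375A, G393A, G404A, G408A, A442G and C449G, with the base of Mrpl48 first and that of the pseudogene last. Mrpl48-ps was listed at 9.36, 9.15 and 8.69 TPM, and Mrpl48 took 71.0% ± 1.95 of the sum of both (SD, n = 3). With the copy added, Mrpl48 stood at -0.999 from the family median on the log2 scale, in place of -1.45, and was no longer 2-fold below it.

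Mrps33 has a copy, Gm5776, with the single mismatch G171A over 318 bases. Mrps33 had 127, 122 and 117 TPM in replicates 1, 2 and 3, while Gm5776 was listed at 0, 0.108 and 7.17 TPM, so the copy's level lay almost entirely in replicate 3. In all, 24 members had 43 pseudogene copies of at least 90% identity, and these 3 copies were the ones with a mean of at least 1 TPM among the 41 that were measured. Of the 78 members, 38 share no word of 31 bases in their coding sequence with any other gene, and 13 share at least 50% of their words.

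**Figure D3:**
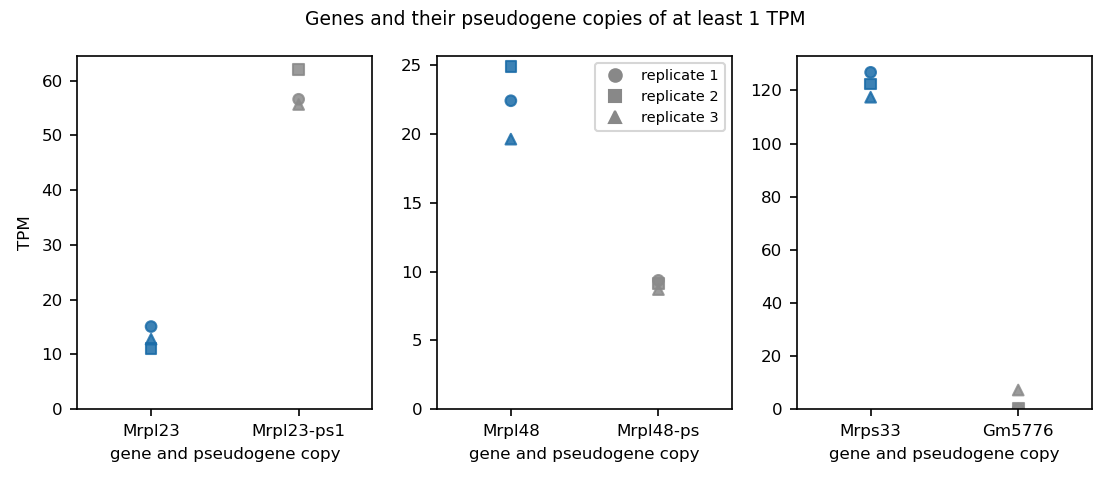
TPM of Mrpl23, Mrpl48 and Mrps33 (blue, left in each panel) and of their pseudogene copies (grey, right), 1 point per library. The pseudogene Mrpl23-ps1 is above its parent gene in all 3 libraries, and Gm5776 rises above 1 TPM only in replicate 3, with 7.17 TPM.

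The members were steady between libraries. Their median coefficient of variation was 4.19%, against 6.52% over the 12014 genes averaging 1 TPM or more and 5.21% over the 7226 symbols whose means lie within the members' range. It was under 10% for 73 of 78 members (93.6%), against 71.7% of the 12014 genes and 85.5% of the 7226 symbols in the members' range. After Mrpl23, the most variable were Mrpl48 (11.8%), Mrpl19 (bL19m, 11.7%), Mrpl2 (uL2m, 11.5%) and Mrpl13 (uL13m, 10.2%). Mrpl2 was high in replicate 1, with 98.6, 82.2 and 80.6 TPM. Mrpl19 had 32.0, 38.1 and 30.7 TPM and Mrpl13 had 90.2, 106 and 88.7 TPM, both high in replicate 2. At the other extreme, Mrpl21 (bL21m) had 100.6, 100.7 and 100.9 TPM.

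In replicates 2 and 3 the members lay to the other side of their companion libraries than most genes. On the log2(TPM + 1) scale, each library was set against the mean of the other libraries. The median difference over the members was 0.03, 0.01 and -0.04 for replicates 1, 2 and 3, and over the 12014 genes 0.04, -0.08 and 0.04. Replicate 2, the low library for most genes, was above the others for 44 of 78 members, against 24.4% of the genes with a known length. Replicate 3 was above the others for 19 of 78 members, against 66.3%, and it was the lowest library for 43 of 78 members, against 20.1% of all genes. These differences were not tested.

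Transcript length moved with the drift. Across the 10978 genes with a length, the difference of replicate 2 from the others correlated with log2 length at r = -0.39, and that of replicates 1 and 3 at 0.17 and 0.28, as a description across genes that share the libraries. Members have short transcripts, with a median longest transcript of 1327.5 bases against 3132 bases for all tested genes. After a straight line on length was removed, the members' medians were 0.01, 0.03 and -0.05, with 45, 50 and 23 of 78 above 0. The cytosolic ribosomal proteins, which are also short, had medians of -0.05, 0.10 and -0.05. The part of length in these library differences was not tested.

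**Figure D4:**
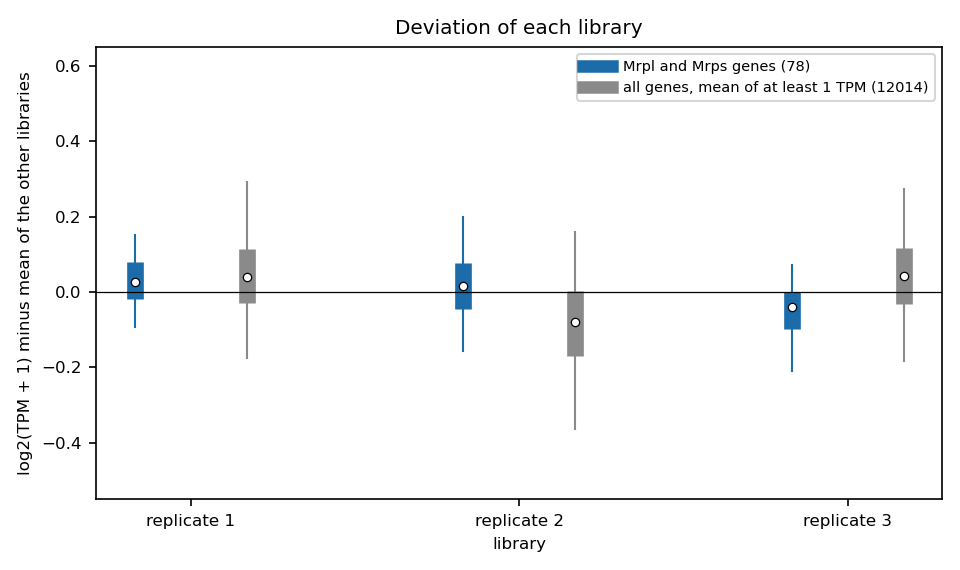
Difference of each library from the mean of the other libraries in log2(TPM + 1), for the 78 Mrpl and Mrps genes (blue, left) and for all 12014 genes averaging 1 TPM or more (grey, right). White points are medians, thick bars run from the lower to the upper quartile and thin lines from the 5th to the 95th percentile. In replicate 2 the median is 0.01 for the members and -0.08 for all genes, and in replicate 3 it is -0.04 for the members and 0.04 for all genes.

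Coding length and level were weakly related, in the members as in genes in general. Spearman's rho between coding length and mean TPM was -0.25 across the 78 members and -0.22 across 10978 protein-coding genes, which share the libraries and the length correction of TPM. The 39 members of at most 582 coding bases had a median of 63.9 TPM, and the 39 longer members had 56.9 TPM. Mrps21 (261 bases) and Mrpl33 (195 bases) were short and abundant, but Mrpl38, with 1140 bases, was in the top 7.

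The mitoribosomal proteins that lack an Mrp symbol were within the range of the members. Aurkaip1 (mS38) had 171, 175 and 172 TPM in replicates 1, 2 and 3, and Dap3 (mS29), a GTP-binding protein, had 140, 133 and 134 TPM. Chchd1 (mS37) had 80.5 ± 7.84 TPM, Ptcd3 (mS39, at the mRNA entry) 64.4 ± 2.95 TPM and Gadd45gip1 (mL64) 36.1 ± 0.301 TPM (SD, n = 3). Their median was 80.5 TPM.

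Factors that build or serve the ribosome had lower medians than its proteins. All 28 assembly factors were detected, with a median of 17.8 ± 1.18 TPM, and C1qbp (p32, a matrix chaperone) stood apart from them with 346, 345 and 329 TPM. Next were Rbfa, a small subunit maturation factor, with 40.5 ± 1.88 TPM, Mterf4 (large subunit assembly) with 36.8 ± 2.69 TPM and Oxa1l. All 11 translation factors were detected, with a median of 19.0 ± 0.836 TPM. Tufm, the elongation factor that delivers tRNAs, had 94.6 ± 3.10 TPM, Gfm1 (translocation) 63.9 ± 4.60 TPM, Tsfm (the exchange factor of Tufm) 46.0 ± 3.66 TPM and Mtif2 (initiation) 30.2 ± 1.67 TPM (SD, n = 3).

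All 17 mitochondrial aminoacyl-tRNA synthetases were detected, with a median of 13.7 ± 0.976 TPM. Lars2, the leucyl-tRNA synthetase, was listed far above the rest with 837, 1373 and 788 TPM, and replicate 2 was highest. Its coefficient of variation of 32.5% was the largest of the list. Shared sequence was searched for only in the members, so whether reads of other genes were counted for Lars2 was not tested. Iars2 had 52.1 ± 2.85 TPM and Rars2 38.9 ± 2.67 TPM. The 10 genes of mitochondrial transcription and RNA stability had a median of 29.4 ± 1.33 TPM, led by Slirp (122 ± 1.46 TPM), an mRNA-stabilising protein, with its partner Lrpprc at 48.3 ± 2.12 TPM. The transcription factors Tfam and Tfb2m had 52.6 ± 3.01 and 50.5 ± 3.33 TPM (SD, n = 3).

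The mRNAs that this ribosome translates were far more abundant than the mRNAs of its proteins. The median of the 13 mitochondrially encoded mRNAs was 51.6, 43.1 and 48.6 times that of the members in replicates 1, 2 and 3, a mean of 47.8 ± 4.31 (SD, n = 3). mt-Atp8 (11442 ± 836 TPM), mt-Co3 (7443 ± 162 TPM), mt-Atp6 (6882 ± 239 TPM) and mt-Co2 (4865 ± 305 TPM) were highest, and mt-Nd6, encoded on the other strand, was lowest with 6.11 ± 1.20 TPM. Libraries were made from RNA selected by poly(A), which bears on mitochondrial mRNAs. The mitochondrial rRNAs, looked for as mt-Rnr1 and mt-Rnr2, were not among the symbols measured.

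Cytosolic ribosomal proteins stood at a level of the same order as the mitochondrial mRNAs. By symbol, 78 of 83 were at or above 1 TPM in every library, as were all 78 members. The median member had 62.7, 64.5 and 60.3 TPM in replicates 1, 2 and 3, against 2174, 2273 and 2211 TPM for the median cytosolic gene. The ratio of cytosolic over mitochondrial was 35.5 ± 1.04 for medians and 32.6 ± 1.33 for sums (SD, n = 3). The mitochondrial set took 0.582%, 0.580% and 0.561% of replicates 1, 2 and 3, and the cytosolic set took 18.3%, 19.7% and 18.3%.

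**Figure D5:**
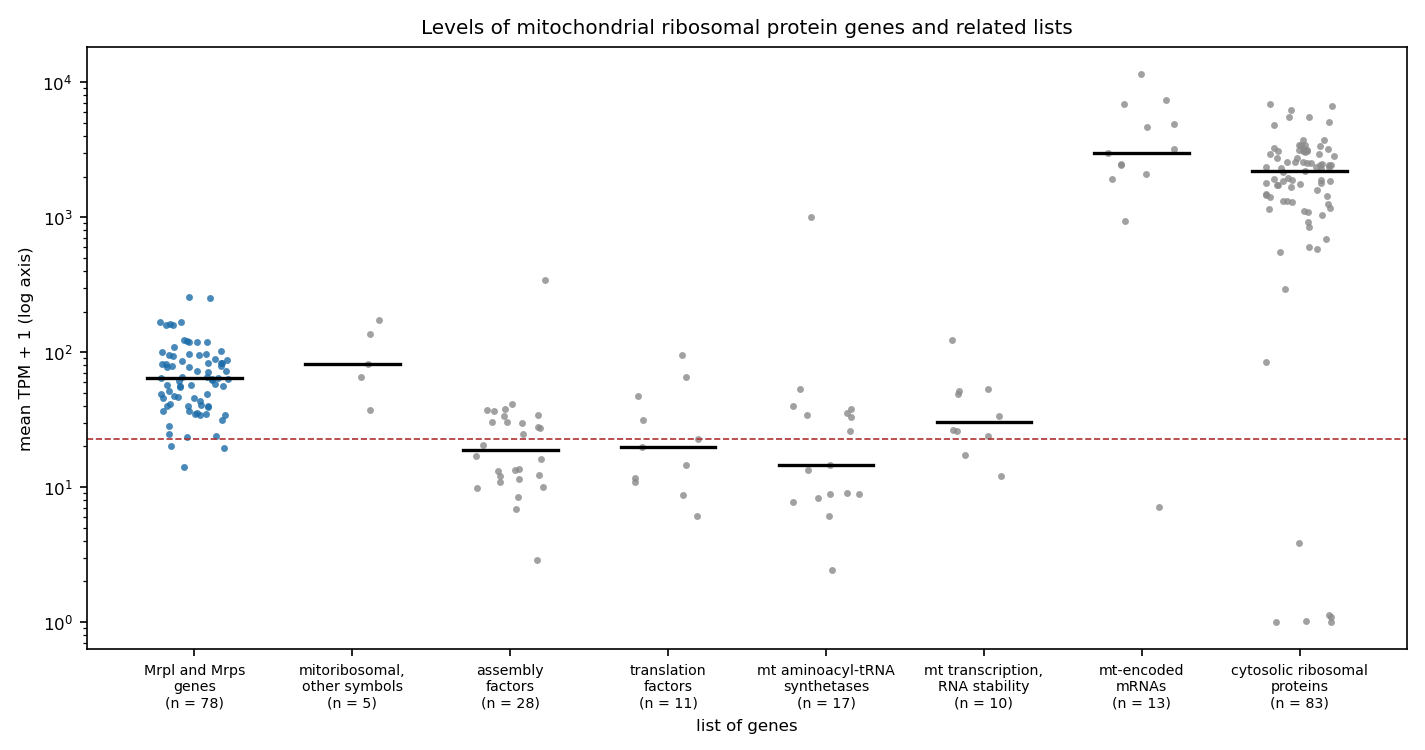
Mean TPM + 1 over 3 libraries (log axis) of each gene in 8 lists, Mrpl and Mrps genes first in blue, with black bars at the list medians and a dashed line at the median of all 12014 genes averaging 1 TPM or more. The 78 members lie between 13.0 and 255 TPM, with a median above those of the assembly and translation factors, and below the mitochondrially encoded mRNAs other than mt-Nd6.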

How the data were processed

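Polyadenylated RNA of KPC78 cells was sequenced in 3 libraries of 1 group. Per the file headers, kallisto was run, and the authors deposited its TPM summed per gene symbol. Tools and build in the submitters' processing notes are kallisto 0.44.0, bcl2fastq 2.19 and GRCm38.p6. The annotation release, the use of strand and how transcripts were summed: not given in the sources used here. A short second sheet holds 3 further columns whose names match no sample label, and it was not used. TPM keeps no depth, so precision comes from the replicates, and a gene reaching 1 TPM in each library was called detected.

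From these values log2(TPM + 1) was computed, which understates differences of low genes, and the library's median over the members (or the second gene of a pair) was subtracted. The 12014 symbols with a mean of at least 1 TPM were fitted in R 4.3.3 with limma 3.58.1. The fit was intercept only and two-sided, with Benjamini-Hochberg adjustment over all of them and a threshold of 0.05. It was tried on simulated data with independent noise for each gene and no subtracted reference. That trial does not cover the noise of the reference, which all genes of a fit share. Lists are described by counts and medians without a test. Coordinates and coding sequences came from GENCODE M21 (GRCm38, 78 of 78 members matched by symbol), copies from BLAST+ 2.17.0 (at least 90% identity over 200 bases) and promoters from RefSeq (GRCm38.p6). Python 3.11.15 and pandas 2.3.3 were used. Named in full were the 8 highest and 8 lowest members, the 8 pairs, the 5 most variable members, the 4 highest genes of each other list with those under 1 TPM, and Mrpl or Mrps pseudogenes of at least 1 TPM. Some values that this rule covers are left out here. Members named by their position in the ribosome, the other neighbours and overlapping genes were chosen after their values were seen. The members, lists and pairs were chosen with earlier results of these data known. Alternatives were other pseudocounts, filters, reference levels and scalings, and leaving out each replicate.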

Additional observations from a re-analysis of the deposited data

How the results depend on the processing

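No paired analysis was possible because all 3 libraries belong to 1 group. Under pseudocounts of 0.1 and 5 TPM, no filter, a minimum mean of 5 TPM, the mean of the members as reference level, and leaving out each replicate, the 8 pairs and the 15 members at least 2-fold from the family median kept their direction. Mrps11 fell short of the 2-fold line at a pseudocount of 5 TPM (-0.92), against the mean of the members (-0.998) and without replicate 1 or 2 (-0.995 and -0.95), each with an adjusted p under the threshold. Mrps18c over Mrps18b passed the threshold with replicate 2 left out, at -0.19 on the log2 scale, and its range over the left-out replicates was -0.19 to -0.0517. The summed TPM of the members was 7544 in place of 5741 after rescaling without mitochondrially encoded and cytosolic ribosomal protein genes, which takes the share of those genes out of the total. Adding pseudogene copies, chosen after seeing the data, gave Mrpl23 a difference of 0.16 in place of -2.19 and Mrpl48 -0.999 in place of -1.45, and left 6 members at least 2-fold below the median in place of 8. Leaving out single replicates gave 31 to 34 members above, 29 to 32 below and 7 or 8 at least 2-fold below. Read depth is unknown, so low values such as that of Gm5776 carry no counting error, and members with long shared or antisense stretches depend on how reads were assigned.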
